A study of Mus musculus with 12 samples.

Results

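The 9 genes described here, S100a8, S100a9, Mmp8, Mmp9, Cxcr2, Csf3r, Ngp, Selplg and Itgb2, are genes associated with neutrophils and with their entry into tissue, and they were taken by symbol from a table of 31208 genes measured in mouse brain. All 9 symbols were found, each in 1 line under 1 Ensembl identifier. They were selected on the counts and CPM of the 3 groups of these same mice (CPM, counts scaled by the total of each mouse's library), with earlier results known, so their own levels and differences are given as a description, and calls among them are counted only to be set beside those of all genes. The experiment asked how lactate given before ischemic stroke alters the brain transcriptome. It held 12 male C57BL/6 mice, 8 weeks old, with 4 sham mice, 4 ischemic mice preconditioned with vehicle (sterile saline) and 4 ischemic mice preconditioned with lactate, the last of which the methods name as D-lactate and the labels only as lactate. Vehicle and lactate were injected into the cerebral ventricle before surgery, ischemia was made with a filament that occludes the left middle cerebral artery (MCA), and the brains were taken after 6 h of ischemia. An injection into sham mice is not described in the sources used here, so surgery, injection and ischemia cannot be told apart in the comparisons with sham mice. Each value is from the RNA of 1 brain sample that holds all its cell types, so fewer neutrophils and less RNA per neutrophil cannot be told apart.

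Neutrophils are short-lived leukocytes of the blood that are made in the bone marrow and are scarce in the healthy brain. After an artery is occluded, they respond to CXC chemokines through Cxcr2 and to granulocyte colony-stimulating factor through Csf3r, roll on selectins through PSGL-1 (encoded by Selplg), adhere through β2 integrins whose shared chain is encoded by Itgb2, and release enzymes and proteins such as Mmp8, Mmp9 and S100a8/S100a9. Many granule proteins, Ngp among them, are transcribed mainly in bone marrow precursors, while S100a8 and S100a9 mRNA is abundant in mature neutrophils and is also found in monocytes. Selplg, Itgb2 and Csf3r are also expressed by microglia or other myeloid cells, and Cxcr2 by cells of the oligodendrocyte lineage.

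Total counts ranged from 6815920 to 10677224 reads per mouse, so that 3 reads, taken as the floor of detection for counting error alone, equalled 0.281 to 0.440 CPM. Among marker genes of other cells, the summed CPM of 10 microglial genes was 230 to 246 in sham mice, 133 to 218 with vehicle and 203 to 234 with lactate, and all 10 were detected. The 5 red blood cell genes summed to 560 to 633, 333 to 500 and 375 to 499 CPM in the same order, and the 8 genes of monocytes and border macrophages to 4.88 to 8.76, 6.31 to 13.1 and 7.44 to 14.6 CPM. Cd3e of T cells and Ms4a1 of B cells were at 0 in all 12 mice. Vehicle mouse 2 stood apart by 5 choroid plexus genes that summed to 1838 CPM (Ttr alone 1817), against 4.25 to 14.7 in the other 3 vehicle mice, 1.36 to 5.41 in sham mice and 10.3 to 19.2 with lactate. Vehicle mouse 1 had the fewest microglial transcripts (133 CPM) and the most from 5 neuronal genes (4893 CPM, against 2987 to 3818 in the other 11 mice). The part of these differences in the results was not tested, and values without either mouse are given where they matter.

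Genes used to identify neutrophils did not move alike. Ly6g, the surface antigen used to identify mouse neutrophils, had 0 reads in every sham mouse, 2 reads in vehicle mouse 3 and 1 read each in lactate mice 1 and 4. Among granule genes, Elane (neutrophil elastase) and Ltf (lactoferrin) had 0 reads among 97227389 in all mice, which allows up to 0.0309 CPM, and Camp (cathelicidin) had 3 reads in all. On the other side, Retnlg had 4 reads in sham mice, 98 with vehicle and 96 with lactate, and Hp (haptoglobin, also a granule protein) 1, 29 and 27 reads. These genes were singled out after their values had been seen. The levels of the 9 genes are therefore described gene by gene rather than as a measure of neutrophil number.

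S100a8 and S100a9 encode the 2 chains of calprotectin, a calcium-binding and zinc-binding protein that neutrophils release in large amounts. Both genes lie on chromosome 3 of GRCm38, S100a8 (ENSMUSG00000056054) at chr3:90668978-90670035 on the plus strand and S100a9 (ENSMUSG00000056071) at chr3:90692632-90695721 on the minus strand, as annotated by GENCODE M21. Each is protein coding with at most 3 exons, and the longest transcripts are 498 and 519 bases long. The study's minimum read length lies between these values, and its effect on the counts of the pair was not tested. Since the pair varied together across mice, the sequence before each gene is shown, from RefSeq (GRCm38.p6), where promoters of 6 of the 9 genes were found (Csf3r, Cxcr2, Mmp8, Ngp, S100a8 and S100a9). The first run is the 157 bases directly before the annotated S100a8 gene (chr3:90668821-90668977, plus strand), and the second the 250 bases before S100a9 (chr3:90695722-90695971, minus strand). Both are written 5′ to 3′ on the strand of the gene, with motif matches in capitals.
S100a8: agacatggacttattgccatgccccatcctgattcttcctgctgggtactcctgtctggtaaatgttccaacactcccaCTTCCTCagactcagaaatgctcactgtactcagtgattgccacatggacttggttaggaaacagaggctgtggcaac
S100a9: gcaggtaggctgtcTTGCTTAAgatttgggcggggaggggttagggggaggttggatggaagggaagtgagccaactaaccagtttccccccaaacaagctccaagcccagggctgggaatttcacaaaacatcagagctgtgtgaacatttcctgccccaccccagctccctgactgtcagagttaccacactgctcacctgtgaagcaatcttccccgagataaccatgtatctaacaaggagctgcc
The capitals mark a match to GAGGAAG, the core bound by PU.1 (a myeloid transcription factor), on the opposite strand before S100a8, and a match to TTGCNNAA, a consensus of the C/EBP factors of myeloid cells, before S100a9. Both strands of the 250 bases before each RefSeq start were searched for these motifs, for AP-1 (TGANTCA) and for a TATA box (TATAAA), and no matches overlapped. PU.1 letters were present in 10.6% of 32851 mouse promoters of the same length and in those of S100a8, Csf3r and Mmp8. C/EBP letters were present in 9.56% of all promoters and in those of S100a9, Mmp8 and Ngp. TATAAA was present in 12.4% of all promoters and among these 6 only before S100a8 (outside the bases shown), and TGANTCA in 6.75% and in none of the 6. Matches describe letters and are not binding sites.

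S100a8 was low in sham mice and higher in every ischemic mouse. Its CPM was 1.055, 0.446, 0.815 and 1.23 in sham mice 1 to 4 (28 reads in all), 6.09, 26.2, 36.1 and 5.72 in vehicle mice 1 to 4 (596 reads) and 10.5, 11.98, 19.6 and 7.77 in lactate mice 1 to 4 (394 reads). No ischemic mouse overlapped a sham mouse, whereas all 4 lactate values lay inside the range of the vehicle group. The means were 0.887 ± 0.341 in sham mice, 18.5 ± 15.1 with vehicle and 12.5 ± 5.08 with lactate (CPM, SD, n = 4 each), or 20.9 and 14.1 times the sham mean. Vehicle mice differed among themselves by 6.31-fold between the lowest and the highest, with an SD 10.2 times that of read counting alone, and lactate mice by 2.53-fold with an SD 4.08 times that of counting. Fitted log2 fold changes were 4.40 ± 0.65 (SE) for vehicle against sham, 3.83 ± 0.36 for lactate against sham and -0.58 ± 0.53 for lactate against vehicle.

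S100a9 put the vehicle mice in the same order as S100a8, but not the sham or the lactate mice: lactate mouse 2 had the lowest S100a9 of its group and not the lowest S100a8. Sham mice had 1.19, 0, 0 and 0.247 CPM, and 9 of their 11 reads came from sham mouse 1. Vehicle mice had 5.15, 20.2, 29.6 and 2.20 CPM, and lactate mice 8.92, 6.11, 16.5 and 7.30. Vehicle mice 2 and 3 were again the highest of all, vehicle mouse 4 the lowest of the ischemic mice, and the 4 lactate values lay inside the vehicle range. Means were 0.358 ± 0.564 CPM in sham mice, 14.3 ± 12.9 with vehicle and 9.70 ± 4.66 with lactate (SD, n = 4 each), and the ratio of the highest to the lowest vehicle mouse was 13.5. The fitted log2 fold change was 5.34 ± 0.95 (SE) for vehicle against sham, 4.78 ± 0.62 for lactate against sham and -0.57 ± 0.61 for lactate against vehicle. The values against sham rested on few sham reads: without sham mouse 1 they were 7.22 and 6.65, on 2 remaining sham reads, so that their size depends on how the fit treats counts near 0. Without vehicle mouse 3, the value for vehicle against sham was 4.72 and that for lactate against vehicle 0.05, which turned its sign, and the latter was -0.95 without lactate mouse 3.

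**Figure D1:**
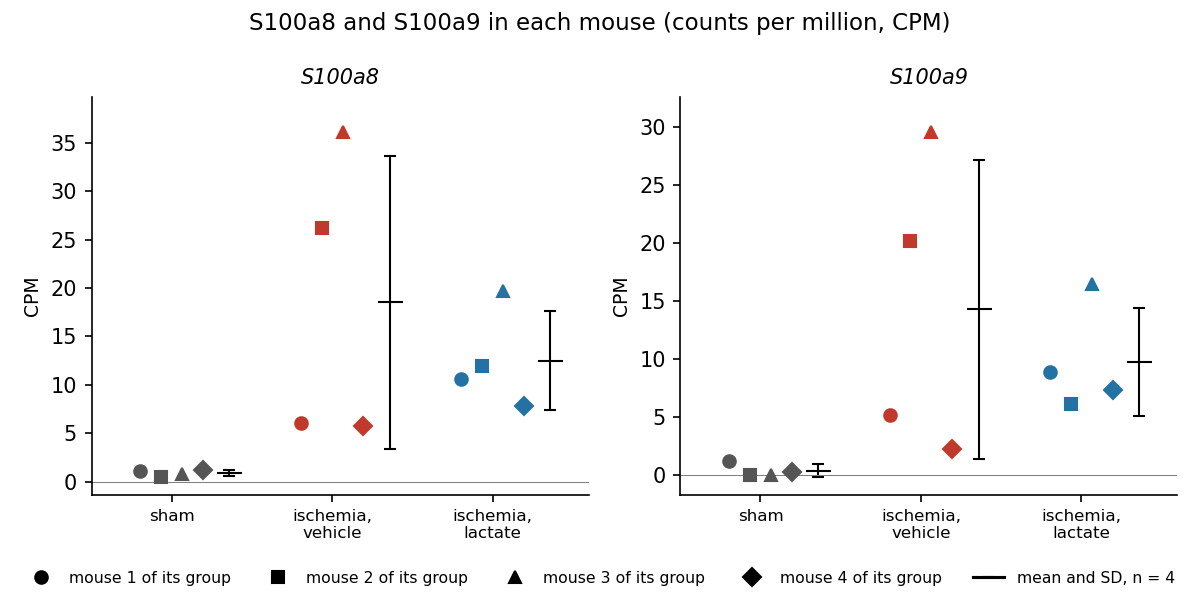
CPM of S100a8 (left) and S100a9 (right) on the y axis for each mouse, by group on the x axis, with a symbol for each numbered mouse of its group and the mean with SD (n = 4) in black. Sham mice lie between 0 and 1.23 CPM, vehicle mice spread from 5.72 to 36.1 for S100a8 and from 2.20 to 29.6 for S100a9, and lactate mice fall within the vehicle range.

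S100a8 made up 54.2% to 72.2% of the reads of the pair in vehicle mice, 51.5% to 66.2% in lactate mice and 47.1% to 100% in sham mice, where the pair had few reads. Across the 12 mice, log2(CPM + 1) of the pair had a Pearson r of 0.98, and within the 8 ischemic mice 0.95, given as a description since both genes share each mouse's library and depth. The pair held 2.99% to 13.4% of the reads of all 9 genes in sham mice, 33.5% to 81.1% with vehicle and 41.1% to 66.3% with lactate. The summed CPM of the 9 genes was 14.9 to 16.7 in sham mice, 28.6, 63.6, 81.0 and 23.6 in vehicle mice 1 to 4 and 38.0, 31.9, 54.5 and 36.6 in lactate mice 1 to 4. Without S100a8 and S100a9 the sum was 14.4 to 15.9 in sham mice, 15.3 to 17.3 with vehicle and 13.8 to 21.6 with lactate. On the log2 scale, the mean difference of the sum from sham mice was 1.43 with vehicle and 1.30 with lactate for 9 genes, and 0.14 and 0.27 for the 7 others.

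Itgb2, which encodes CD18, the β2 integrin chain that binds Icam1 on endothelium, was the only one of the 9 besides the S100 pair with higher CPM in every ischemic mouse than in every sham mouse. Sham mice had 0.923, 1.11, 0.407 and 0.617 CPM (7, 10, 3 and 5 reads), vehicle mice 1.31, 2.46, 2.61 and 1.32 CPM, and lactate mice 1.89, 1.68, 1.32 and 2.43 CPM. The lowest ischemic mouse (1.31 CPM) thus stood just above the highest sham mouse (1.11 CPM). Means were 0.765 ± 0.315, 1.93 ± 0.708 and 1.83 ± 0.467 CPM (SD, n = 4 each), with log2 fold changes of 1.32 ± 0.41 (SE) for vehicle against sham, 1.26 ± 0.38 for lactate against sham and -0.08 ± 0.35 for lactate against vehicle. The gene lies at chr10:77530252-77565708 (plus strand). The value for lactate against vehicle was -0.25 without lactate mouse 4 and 0.09 without vehicle mouse 3. It is expressed by microglia and other myeloid cells as well. Beside it, the 10 microglial markers summed to 133 to 234 CPM in ischemic mice against 230 to 246 in sham mice, and the 8 markers of monocytes and border macrophages to a median of 5.83 CPM in sham mice, 7.90 with vehicle and 13.04 with lactate. The part of these cells in the Itgb2 values was not tested.

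Selplg, which encodes PSGL-1, the leukocyte ligand of P-selectin, had 9.24 ± 1.01 CPM in sham mice, 8.97 ± 2.52 with vehicle and 11.6 ± 2.27 with lactate (SD, n = 4 each). Its values were 8.44, 10.5, 9.64 and 8.39 CPM in sham mice 1 to 4, 11.6, 8.16, 5.85 and 10.3 in vehicle mice and 11.9, 8.62, 11.7 and 14.1 in lactate mice, so the 3 groups overlapped. The vehicle mouse with the most S100a8, mouse 3, had the least Selplg. The log2 fold change was 0.35 ± 0.19 (SE) for lactate against sham, 0.34 ± 0.25 for lactate against vehicle and -0.00 ± 0.24 for vehicle against sham. The last value was -0.16 without vehicle mouse 1 and 0.16 without vehicle mouse 3, and that for lactate against vehicle 0.51 and 0.18. The gene lies at chr5:113818536-113832644 (minus strand).

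Of the receptors, Cxcr2 (chr1:74153989-74161246, plus strand) binds the chemokines Cxcl1, Cxcl2 and Cxcl5 and draws neutrophils out of the blood. Cxcr2 had 2.64, 2.23, 2.58 and 3.21 CPM in sham mice, 3.47, 3.50, 3.36 and 3.23 with vehicle and 1.22, 1.56, 2.64 and 3.13 with lactate. The vehicle values were close to each other, with an SD of 0.121 CPM where counting alone gives 0.648, and lay above all sham and all lactate values by a margin as small as that between 3.23 and 3.21 CPM. Lactate mice 1 and 2 were the lowest of the 12. Means were 2.66 ± 0.405, 3.39 ± 0.121 and 2.14 ± 0.898 CPM (SD, n = 4 each), and log2 fold changes were 0.38 ± 0.25 (SE) for vehicle against sham, -0.28 ± 0.32 for lactate against sham and -0.68 ± 0.32 for lactate against vehicle. The value for lactate against sham was -0.52 without lactate mouse 4 and -0.09 without lactate mouse 1. Reads numbered 19 to 26 per sham mouse, 22 to 37 per vehicle mouse and 9 to 27 per lactate mouse.

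Csf3r encodes the receptor of granulocyte colony-stimulating factor, which drives the making and release of neutrophils, and lies at chr4:126024550-126044440 (plus strand). It had 17, 1, 20 and 15 reads in sham mice, 1, 16, 9 and 1 in vehicle mice and 18, 12, 10 and 10 in lactate mice. Sham mouse 2 and vehicle mice 1 and 4 therefore stood at 1 read each while the other 9 mice had 9 to 20. Means were 1.73 ± 1.14 CPM in sham mice, 0.858 ± 0.937 with vehicle and 1.59 ± 0.576 with lactate (SD, n = 4 each), and the groups overlapped. Its log2 fold changes were -0.97 ± 0.80 (SE), -0.06 ± 0.54 and 0.88 ± 0.68 for vehicle against sham, lactate against sham and lactate against vehicle. Without vehicle mouse 2 the values with vehicle were -1.87 against sham and 1.79 for lactate against vehicle, and without vehicle mouse 1 they were -0.53 and 0.46. The value for lactate against sham was -0.47 without sham mouse 2 and 0.24 without sham mouse 3.

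The 3 genes of released enzymes and granule contents had few reads. Mmp8, the neutrophil collagenase (chr9:7558456-7568485, plus strand), had 0 reads in all 4 sham mice, 1, 3, 13 and 1 reads in vehicle mice and 2, 0, 4 and 0 in lactate mice. Over the group, this was 5.78 times a floor of 3 reads in 4 sham mice with vehicle and 2.00 times with lactate. The ischemic reads were taken as exact there, so these ratios are not lower bounds, and lactate mice 2 and 4 had 0 reads. Vehicle mouse 3, the highest for S100a8 and S100a9, held 13 of the 18 vehicle reads.

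Mmp9, gelatinase B (chr2:164940780-164955850, plus strand), cleaves type IV collagen of the basement membrane and is made by neutrophils, endothelium and glia. Mmp9 had 2 to 4 reads per sham mouse, 4 to 7 per vehicle mouse and 3 to 5 per lactate mouse, with means of 0.406 ± 0.118, 0.565 ± 0.072 and 0.569 ± 0.146 CPM (SD, n = 4 each). The 3 means differed by no more than 1.40-fold from sham, on at most 7 reads in any mouse. Ngp, neutrophilic granule protein (chr9:110419747-110423012, plus strand), had 1 read in sham mouse 2 and 0 in the other sham mice, 1, 1, 2 and 0 reads with vehicle and 1 read in each lactate mouse. The 4 reads of either ischemic group against 1 read in sham mice gave ratios of 3.85 (95% exact counting interval 0.381 to 189.8) and 4.01 (0.397 to 197.4).

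**Figure D2:**
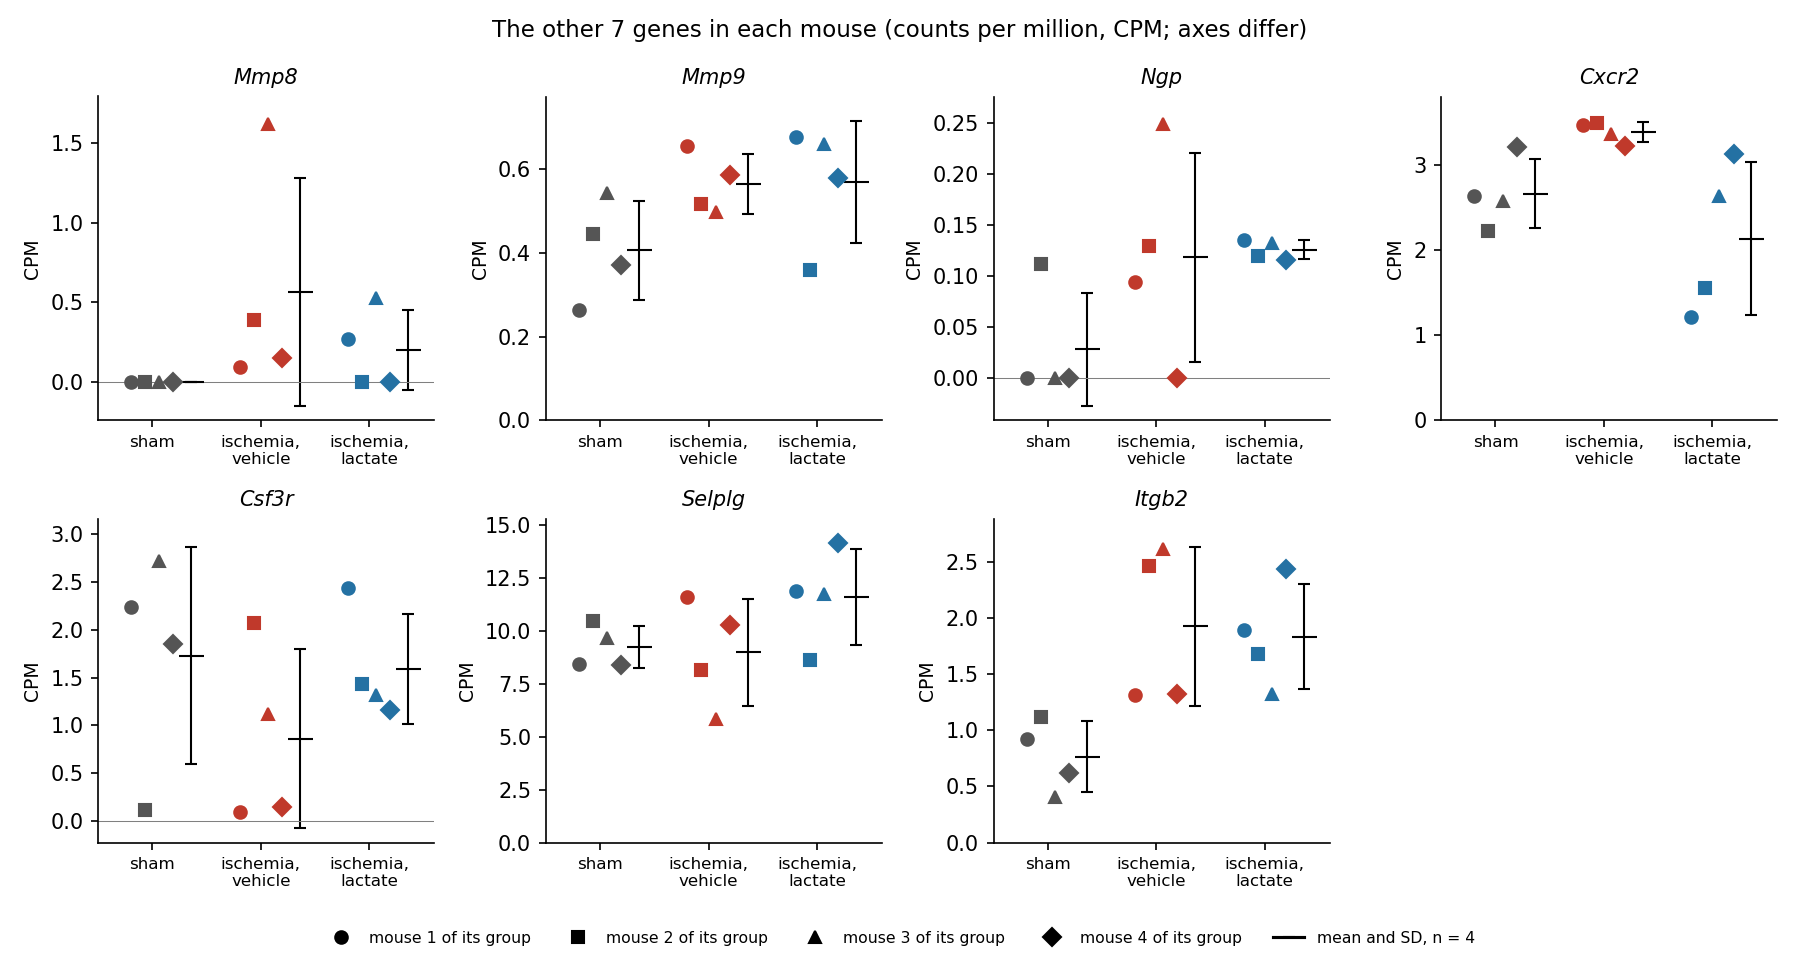
CPM of the other 7 genes on the y axes, which differ in scale, for each mouse by group on the x axis, with a symbol for each numbered mouse and the mean with SD (n = 4) in black. Itgb2 lies above the sham range in all ischemic mice, Cxcr2 is lowest in lactate mice 1 and 2, Csf3r, Selplg and Mmp9 overlap between groups, Mmp8 is at 0 in all sham mice and highest in vehicle mouse 3 (1.62 CPM), and Ngp does not exceed 0.249 CPM.

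All 3 pairs of groups were fitted with edgeR's quasi-likelihood test over genes with at least 1 CPM in at least 4 of the 8 mice compared, and calls needed a Benjamini-Hochberg adjusted p under 0.05 with a 1.5-fold change or more. Of the 9 genes, 6 passed this filter and Mmp8, Mmp9 and Ngp did not. S100a8, S100a9, Itgb2 and Csf3r had fewer than 4 sham mice at 1 CPM and reached it against sham with the ischemic mice, so counts over the 6 are not evidence on the set. Between vehicle and sham, 2 of the 6 were called higher (S100a8 and S100a9) and 0 lower, beside 1.29% of 17019 genes called higher and 0.182% lower. At an unadjusted p under 0.05 and the same fold change, 3 were called (also Itgb2), beside 6.5% of all genes. CPM did not overlap for 4 of the 6 (S100a8, S100a9, Cxcr2 and Itgb2), beside 4.14% of all genes tested, and for Mmp8 among the others. Nothing is read from these counts, since the same contrasts were known when the genes were chosen.

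Between lactate and sham, 3 of the 6 were called higher (S100a8, S100a9 and Itgb2) and 0 lower, beside 7.88% of 17262 genes called higher and 2.52% lower. The same 3 were called at an unadjusted p, beside 11.9% of all genes, and did not overlap, beside 10.4%. Ngp, under the filter, did not overlap either, but on 1 read in each lactate mouse and 1 read in sham mouse 2. Its CPM in these mice (at least 0.116 against 0.111) differed only by the library totals. Between lactate and vehicle, 0 of the 6 were called under either rule by edgeR. Beside this, 0% of 17419 genes were called higher and 0.00574% lower (1 gene) after adjustment. At an unadjusted p, 3.76% were called higher and 2.47% lower. DESeq2, used with the adjusted rule alone, called 0 of the 6, beside 0.287% of all genes higher and 0.0517% lower. Cxcr2 alone did not overlap and was lower with lactate, beside 1.83% of all genes. Both comparisons with sham share the same 4 sham mice, so their values are set side by side and not counted as 2 findings. Median log2 fold changes of the 6 were 0.85, 0.81 and -0.33 in the 3 comparisons, while those over all genes tested were 0.0031, -0.028 and -0.029.

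These counts also rest on single mice, which is given as a limit of them. For vehicle against sham, S100a9 was not called without sham mouse 2, 3 or 4 (log2 fold changes 4.92, 4.97 and 5.22). For lactate against sham, Itgb2 was not called without sham mouse 1, 3 or 4 or lactate mouse 1, 2 or 4 (1.06 to 1.52 in all 8 fits), nor by DESeq2. Without vehicle mouse 1 and without vehicle mouse 2, which carried the choroid plexus transcripts, the log2 fold changes for vehicle against sham were 4.71 and 4.20 for S100a8, 5.63 and 5.14 for S100a9 and 1.48 and 1.19 for Itgb2. For lactate against vehicle, the log2 fold change of S100a8 was -0.88 without vehicle mouse 1, -0.36 without vehicle mouse 2 and -0.04 without vehicle mouse 3.

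**Figure D3:**
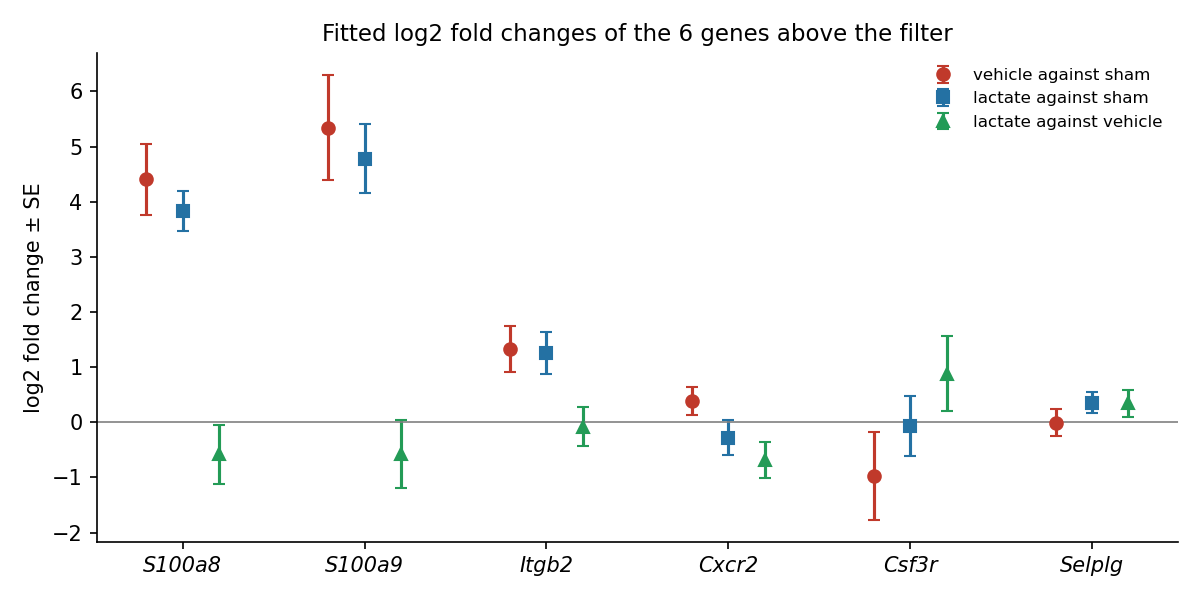
Fitted log2 fold changes (y axis) with SE of the 6 genes above the filter (x axis) for the 3 comparisons, each of 4 against 4 mice. S100a8 and S100a9 lie between 3.83 and 5.34 against sham, Itgb2 at 1.26 and 1.32, and all 6 genes between -0.68 and 0.88 for lactate against vehicle.

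The 66 other neutrophil-associated genes, in 7 lists by role, were not used to choose the 9, although the lists were also made with earlier results of these data known. Of 18 that passed the filter, 3 rose between vehicle and sham (Lcn2, Il1r2 and Pglyrp1) and 0 fell, beside 1.29% of all genes called higher and 0.182% lower, with a median log2 fold change of 0.38. Between lactate and sham, 10 of 20 rose (also C5ar1, Lyz2, Ncf1, Cyba, Rac2, Anxa1 and Retnlg) and 0 fell, beside 7.88% and 2.52% of all genes, with a median of 0.87. The tested genes are not a neutral sample of the lists: Lcn2 and Il1r2 in both comparisons, and C5ar1 and Retnlg with lactate, were under 1 CPM in every sham mouse and passed the filter only through the ischemic mice, so they had to differ to be tested. Rac2, Anxa1 and Icam1 reached 1 CPM in 1, 3 and 2 sham mice and also needed ischemic mice to pass. Between lactate and vehicle, 0 of 22 were called by edgeR, beside 0% of all genes higher and 0.00574% lower, with a median of 0.23. At an unadjusted p under 0.05, 3 were called (Lcn2, C5ar1 and Ncf1, all higher with lactate), beside 3.76% of all genes higher and 2.47% lower, and DESeq2 called 1 higher (Lcn2), beside 0.287% of all genes. Testing the same genes without each mouse in turn gave 2 to 3 calls for vehicle against sham, where Pglyrp1 was kept only without vehicle mouse 3, and 9 to 10 for lactate against sham, where Anxa1 was kept only without lactate mouse 2 or 4. Without vehicle mouse 2 the calls were 2 for vehicle against sham (Lcn2 and Il1r2).

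Among 12 granule proteins, 4 passed the filter, Lcn2 only through the ischemic mice. Against sham, 2 rose with vehicle (Lcn2 and Pglyrp1), beside 1.29% of all genes, and 3 with lactate (also Lyz2), beside 7.88%. Lcn2, lipocalin-2, binds bacterial siderophores and is made by neutrophils and by reactive astrocytes. It had 0, 0, 0 and 0.247 CPM in sham mice, 24.8, 22.5, 21.5 and 27.3 with vehicle and 45.8, 44.9, 43.6 and 41.3 with lactate. The 3 groups did not overlap, and unlike S100a8 the 4 vehicle mice were close to each other (24.0 ± 2.56, against 43.9 ± 1.98 CPM with lactate, SD, n = 4). On 2 sham reads the ratio to sham was 384.3 with vehicle (95% exact counting interval 106.0 to 3179) and 702.1 with lactate (194.0 to 5803), with adjusted p = 2.79e-06 and 7.67e-09, while lactate against vehicle gave a log2 fold change of 0.85 ± 0.14 (SE) with adjusted p = 0.265.

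Pglyrp1, a peptidoglycan recognition protein of granules, had 2.97 ± 0.512 CPM in sham mice, 7.72 ± 3.18 with vehicle and 9.13 ± 0.939 with lactate (SD, n = 4). Its log2 fold change was 1.40 ± 0.31 (SE, adjusted p = 0.0459) with vehicle and 1.64 ± 0.21 (adjusted p = 0.000388) with lactate, against sham. Lyz2, lysozyme of myeloid cells and microglia, rose with lactate by 1.12 ± 0.21 (adjusted p = 0.00482), with 8.25 to 12.8 CPM per mouse against 3.80 to 6.02 in sham mice. Vehicle mice 2 and 3 had 12.95 and 14.1 CPM of Lyz2 and vehicle mice 1 and 4 3.75 and 6.60. Prtn3, a serine protease of primary granules, was measured at 3.53 ± 0.985, 3.84 ± 1.58 and 4.62 ± 1.73 CPM, and passed no test.

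Of 14 surface receptors, Il1r2, the decoy receptor of interleukin-1, was the only one above the filter between vehicle and sham, and was called higher there. Il1r2 and C5ar1 were the 2 tested between lactate and sham, and both were called higher. Neither could have passed the filter without its ischemic mice. Il1r2 had 1, 1, 0 and 0 reads in sham mice, 21, 22, 24 and 7 with vehicle and 10, 21, 29 and 22 with lactate, so that no ischemic mouse overlapped a sham mouse. Its ratio to sham was 35.6 with vehicle (9.52 to 299.8) and 41.1 with lactate (11.02 to 345.0, 95% exact counting intervals), with adjusted p = 0.00188 and 0.000249. C5ar1, the receptor of complement C5a on neutrophils and microglia, had 0.363 ± 0.291 CPM in sham mice, 2.09 ± 1.11 with vehicle and 4.30 ± 1.03 with lactate, and rose with lactate by a log2 fold change of 3.50 ± 0.43 (SE, adjusted p = 0.000278). It did not reach the filter between vehicle and sham, where vehicle mouse 1 had 0.562 CPM and the other vehicle mice 2.24 to 3.23. Clec4d, a C-type lectin of myeloid cells, and Fcgr4, an Fcγ receptor, stayed under the filter with 1 and 0 sham reads, 23 and 4 with vehicle and 23 and 19 with lactate. Fitted without the filter, Clec4d was called higher in both ischemic groups against sham, and Fcgr4 with lactate only. The shares of all genes called higher there were 1.09% with vehicle and 6.08% with lactate.

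Of 17 other neutrophil transcripts, 3 were tested between vehicle and sham and none of them (Mxd1, G0s2 and Anxa1) passed, with 0 at an unadjusted p under 0.05 too. Between lactate and sham, 2 of 4 rose (Retnlg and Anxa1), beside 7.88% of all genes called higher. Both needed ischemic mice to pass the filter, so this count is not evidence on the list. Retnlg, a resistin-like hormone abundant in mouse neutrophils, had 4, 0, 0 and 0 reads in sham mice, 7, 41, 45 and 5 with vehicle and 25, 34, 27 and 10 with lactate. Like S100a8 it was highest in vehicle mice 2 and 3 and lowest, among ischemic mice, in vehicle mice 1 and 4, and its log2 fold change between lactate and sham was 4.46 ± 0.74 (SE, adjusted p = 0.00236). Anxa1, annexin A1, rose with lactate by 1.23 ± 0.36 (adjusted p = 0.0402). Mxd1, a transcription repressor, and G0s2, a lipase inhibitor, had mean CPM of 20.9 to 22.5 and 3.75 to 4.31 over the 3 groups, passed no test, and are also expressed outside neutrophils.

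The α chains and partners of β2 integrins were not called by edgeR. Of 6 genes, 3 were tested. At an unadjusted p under 0.05 and the 1.5-fold limit, 1 rose (Itgam, lactate against sham), beside 11.9% of all genes. Itgam, the α chain that pairs with Itgb2 as Mac-1, had 2.90 ± 1.31 CPM in sham mice, 3.96 ± 2.24 with vehicle and 5.27 ± 0.858 with lactate (log2 fold change with lactate against sham 0.89 ± 0.30, adjusted p = 0.0680). Fermt3, the kindlin-3 that activates leukocyte integrins, and Itga4, the α4 chain, had log2 fold changes of 0.53 ± 0.31 and -0.41 ± 0.19 in the same comparison. Of 6 NADPH oxidase genes, which make the superoxide of phagocytes, 4 were tested: 0 rose with vehicle (1, Rac2, at an unadjusted p) and 3 with lactate against sham. These were Ncf1 (log2 fold change 1.11 ± 0.21, adjusted p = 0.0048), Cyba (0.84 ± 0.19, adjusted p = 0.0111) and Rac2 (1.39 ± 0.32, adjusted p = 0.0140). Ncf1 had 5.57 ± 1.17 CPM in sham mice, 6.30 ± 1.79 with vehicle and 11.9 ± 1.76 with lactate, and its lactate values (10.3 to 14.4) lay above those of all vehicle mice (5.31 to 8.99), with a log2 fold change of 0.88 ± 0.24 (adjusted p = 0.466). All 3 are expressed by microglia and macrophages too.

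The ligands of the 2 receptors were at or near the floor in sham brains. None of the 6 passed the filter against sham, and Cxcl1 and Csf3 were the 2 tested between lactate and vehicle. Cxcl1, a chemokine for Cxcr2, had 0, 2, 0 and 2 reads in sham mice, 10, 33, 48 and 11 with vehicle and 1, 35, 31 and 16 with lactate. Cxcl2, which binds the same receptor, had 0 reads in all sham mice, 5, 22, 19 and 4 with vehicle and 0, 3, 11 and 7 with lactate. Over the group, these were 16.1 and 7.02 times a floor of 3 reads in sham mice, with the ischemic reads taken as exact. Csf3, the ligand of Csf3r, had 0, 0, 0 and 1 reads in sham mice, 4, 19, 20 and 7 with vehicle and 3, 18, 12 and 5 with lactate. Vehicle mice 2 and 3 were thus the 2 highest vehicle mice for Cxcl1, Cxcl2 and Csf3, as they were for S100a8, S100a9, Mmp8 and Retnlg, and only vehicle mouse 2 carried the choroid plexus transcripts. Between lactate and vehicle, the log2 fold change was -0.32 ± 0.69 (SE) for Cxcl1 and -0.41 ± 0.62 for Csf3, neither past the test (adjusted p = 0.923 and 0.876). Without the filter, Cxcl1, Cxcl2 and Csf3 were called higher in both ischemic groups against sham, beside 1.09% of all genes with vehicle and 6.08% with lactate. Cxcl5, a further ligand of Cxcr2, had 4 reads in sham mice and 4 each with vehicle and lactate.

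**Figure D4:**
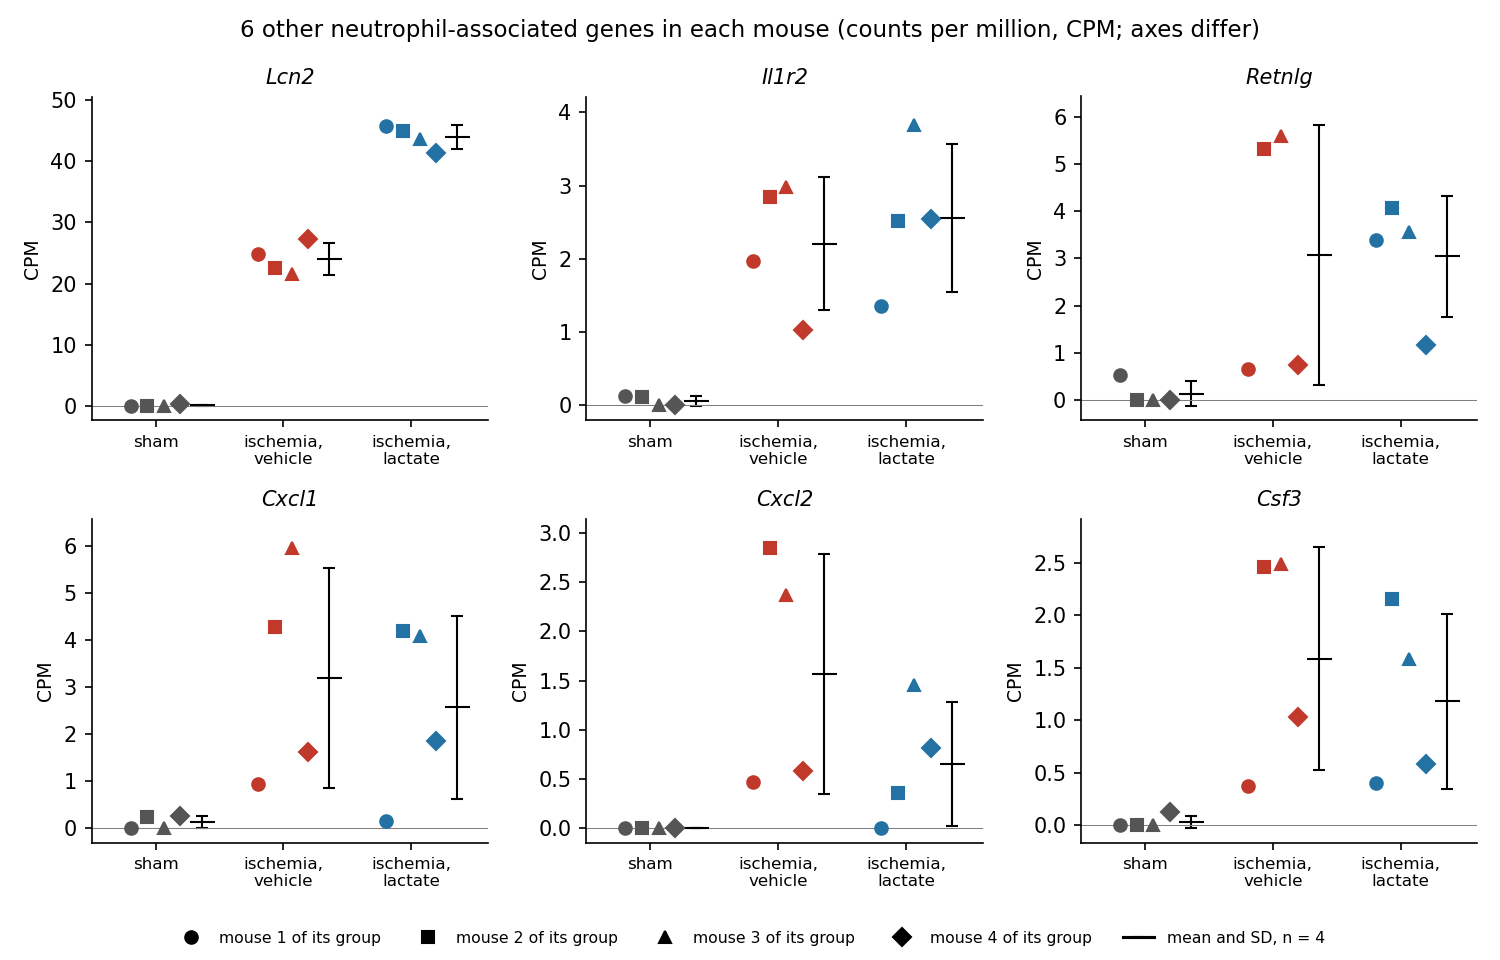
CPM (y axes, which differ in scale) of Lcn2, Il1r2, Retnlg, Cxcl1, Cxcl2 and Csf3 for each mouse by group (x axis), with a symbol for each numbered mouse and the mean with SD (n = 4) in black. Vehicle mice 2 and 3 are highest in their group for every gene except Lcn2, whose 3 groups do not overlap.

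Of 5 endothelial partners, 3 passed the filter against sham and 0 were called by edgeR, while Icam1 passed an unadjusted p higher in both ischemic groups and Icam2 lower with lactate. Icam1, the endothelial ligand of β2 integrins, had 1.04 ± 0.537 CPM in sham mice, 2.20 ± 0.401 with vehicle and 1.89 ± 0.288 with lactate, every ischemic mouse being above every sham mouse. Its log2 fold changes against sham were 1.08 ± 0.39 (SE, adjusted p = 0.248) and 0.86 ± 0.38 (adjusted p = 0.163). Vcam1, the ligand of α4 integrins, had 4.97 ± 1.06, 4.58 ± 2.19 and 5.33 ± 0.606 CPM, and Icam2, a further integrin ligand, 1.65 ± 0.642, 0.707 ± 0.574 and 0.815 ± 0.317 CPM (log2 fold changes -1.21 ± 0.56 and -0.96 ± 0.40 against sham, adjusted p = 0.364 and 0.138). Selp, the P-selectin that binds PSGL-1, had 1 read in sham mice, 7 with vehicle and 9 with lactate.

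The genes whose pattern was most like the summed CPM of S100a8 and S100a9, by Pearson r of log2(CPM + 1) over 12 mice among 17208 genes with a mean of at least 1 CPM, were Elovl4 (r = 0.96), Ccl2 (0.95), Srgn (0.95), Il1r2 (0.95) and Tpm4 (0.94). Within the 8 ischemic mice, r was 0.92 for Elovl4 and 0.74 to 0.79 for the other 4. Elovl4, an elongase of very long fatty acids, had 13.6 ± 1.42 CPM in sham mice, 18.5 ± 1.85 with vehicle and 19.0 ± 0.345 with lactate. Ccl2, a monocyte chemokine, had 0.0978 ± 0.0654, 3.51 ± 2.18 and 3.18 ± 1.32 CPM, and Srgn, a proteoglycan of secretory granules, 9.58 ± 1.29, 27.0 ± 9.96 and 31.0 ± 4.68 CPM. Among the 9 genes, r with S100a8 over 12 and over the 8 ischemic mice was 0.83 and 0.57 for Itgb2, 0.06 and 0.58 for Csf3r, 0.07 and 0.11 for Cxcr2 and -0.18 and -0.72 for Selplg. For the 3 genes with few reads it was 0.74 and 0.82 (Mmp8), 0.76 and 0.80 (Ngp) and 0.42 and -0.31 (Mmp9). These values describe which mice were high together, and over 12 mice they hold the difference between sham and ischemic brains.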

How the data were processed

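RNA of brain samples from 12 mice was reverse transcribed into full-length cDNA, amplified, and read on a nanopore sequencer. By the study's methods, reads that were short, of low quality or ribosomal were discarded, and those with primers at both of their ends were aligned by minimap2. The deposited counts are whole reads per gene, not normalized, and the deposited CPM values are the same counts scaled by the authors to each mouse's total. The submitters' processing notes name GRCm38 and DESeq 1.10.1, and the annotation used for counting is not given in the sources used here. The table also holds fold changes and p-values of the authors' own comparisons, which were not used. The 4 lines naming no gene were dropped, and 0 per-sample columns were unmapped. Reads carry no molecular identifiers, so floors (3 reads) and intervals cover counting error only.

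Groups and mouse numbers were taken from the labels. Pairs of groups were compared on counts by the quasi-likelihood test of edgeR 4.0.16 under R 4.3.3 (TMM factors, only the 2 groups in each fit, adjustment over all genes tested). P-values set the difference between 2 groups against the spread between these samples, whatever its source. Alternatives were DESeq2 1.42.0, other size factors, filters, genes and call rules, 1 fit of 12 mice, a replicate block, and leaving out each mouse, the last also with the tested genes kept, which was chosen after seeing the data. Python 3.11.15 and matplotlib 3.10.9 were used for the rest, with gene positions from GENCODE M21 and promoters from RefSeq (GRCm38.p6).

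The 9 genes, the 7 lists of 66 other neutrophil genes and the 10 lists of cell type markers were chosen with earlier results of these data known. Genes named were the 9, and from each list the 4 with the highest mean CPM and any called gene, apart from 2 that are not reported here. Ly6g, Elane, Ltf, Camp and Hp were named after their values had been seen. The 5 genes most like S100a8 and S100a9 were named by Pearson r.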

Additional observations from a re-analysis of the deposited data

Results flagged for a closer look

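In 26 groups of 4 values of the 9 genes that were not all equal, the highest or lowest mouse was compared with the others by its gap divided by the range of the group (Dixon's ratio, at its 95% limit). Chance exceeds this limit in about 1 of 20 groups. Ngp in sham mice was the 1 group above it, with a ratio of 1.0, because sham mouse 2 had 1 read and the other 3 sham mice had 0.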

How the results depend on the processing

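For the log2 fold changes of the 6 genes above the filter and the summed CPM of the 9, 318 alternative values were computed. Of these, 311 moved by less than 1 SD between mice, 7 by more, and 0 called values changed sign. Mmp8, Mmp9 and Ngp, which had no main fit, are outside this tally. Calls among the 9 genes between vehicle and sham ranged from 1 to 2 without each mouse in turn, by the loss of S100a9 without sham mouse 2, 3 or 4 (1 call each, also with the tested genes kept), between lactate and sham from 2 to 3, and between lactate and vehicle were 0 throughout. Itgb2 was not called between lactate and sham by DESeq2, with other filters, with Ensembl genes only or in 1 fit of 12 mice (2 calls each). Among the other neutrophil genes, calls between vehicle and sham were 6 at an unadjusted p (all higher, beside 6.5% of all genes), 8 without a filter (all higher, beside 1.09% of all genes) and 8 with at least 3 counts in 3 mice (all higher, beside 1.11%). Without a vehicle mouse, genes near 0 in sham mice reach 1 CPM in too few mice to be tested. Calls without each mouse in turn were 0 to 2 (2 to 3 with the tested genes kept). Between lactate and sham they were 18 with either looser filter, all higher, beside 6.08% of all genes without a filter and 7.13% with the other, and 5 to 10 without each mouse. Between lactate and vehicle they were 3 at an unadjusted p (all higher, beside 3.76% of all genes) and 1 by DESeq2 (higher, beside 0.287%). Mouse numbers are shared between groups. Correlations of deviations between same-numbered mice were -0.17 to 0.18, -0.03 to 0.14 and -0.13 to 0.04 in the 3 comparisons. In the same order, 2, 2 and 0 of the 4 mice correlated best with the mouse of their own number. With 4 mice per group, these values cannot decide whether mice were paired. With a replicate block, 2, 3 and 0 of the 9 genes were called, as without it, and 2, 10 and 0 of the others. At 6815920 to 10677224 reads per mouse, Mmp8, Mmp9 and Ngp stayed under the filter; fitted without one, they were not called in any comparison.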
